A study of Homo sapiens with 102 samples.

Results

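YM115 given from both drug sources was compared with YM115 given from 1 source and DMSO, the solvent, from the other. The comparison was made in K562, an established cell line from chronic myeloid leukaemia with the fusion gene BCR-ABL. Libraries were placed in the arms by their labels. The 6 libraries labelled YM115_YM115 were set against 12 libraries labelled YM115_DMSO or DMSO_YM115, which together made 18 of the 102 libraries of the series. All 18 had at least 1000 detected genes, so 0 were left out. Cells had been encapsulated one by one in picolitre droplets with a drug from each of 2 sources, each drug with its own barcode fragment, incubated for 12 h and pooled by treatment, a method called Combi-Seq. The drug pairs were run in 2 screens, dT and Bio, between which the mode of barcoding was changed, and in 3 runs of each screen. Per the study's methods each source was made up to bring its drug to the final concentration, so that YM115_YM115 is nominally a higher dose than either of the other pairs. The concentration is not in the labels, and which listed drug came from which source was not settled from them. The 6 DMSO_DMSO libraries of the same screens served as background with 0 portions. Each drug pair had its own barcode pair within a screen, so that treatment and barcode pair cannot be told apart within a screen.

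The labels write YM115 where the study writes YM155, a small molecule known for lowering the expression of survivin. Survivin, the product of BIRC5, is a member of the inhibitor of apoptosis family and a subunit of the chromosomal passenger complex, which acts in cell division. The compound enters cells through the solute carrier SLC35F2. K562 cells have an erythroid character and make embryonic and fetal globins, which are known to rise when these cells differentiate.

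CLIC1 and ENSG00000241781 were higher with 2 portions of YM115 than with 1, and 0 genes passed as lower. In the fit of both screens, a gene was tested where at least 50% of the 18 libraries counted it, which held for 1731 genes. A gene counted mostly in 1 arm can meet this filter through that arm, and its entry then depends on the difference being tested. By the quasi-likelihood test of edgeR, 2 of these passed a Benjamini-Hochberg adjusted p of 0.05. That was 0.116% of the genes tested. Levels are given as CPM, a gene's counts per 1000000 counts of its library. At an unadjusted p under 0.05 there were 92 (5.31%), of which 68 were higher and 24 lower. DESeq2 called 55 of the same 1731 genes, 35 as higher and 20 as lower, so its calls below stand beside that larger number. A further look at every run gave 14 genes, or 0.809% of those tested, whose level with 2 portions was above both one-portion libraries of the same screen and run in 6 of 6 blocks. There were 0 genes below both in 6 of 6. These 2 counts cannot be compared, since no value can lie below a one-portion library at 0, while a value above it stays possible. Only 221 of the 1731 genes had a count in all 18 libraries. The labels do not say whether runs came from separate cultures, so p-values measure the spread between these libraries. Because cells were pooled, fewer cells of a kind and less RNA per cell cannot be told apart.

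**Figure D1:**
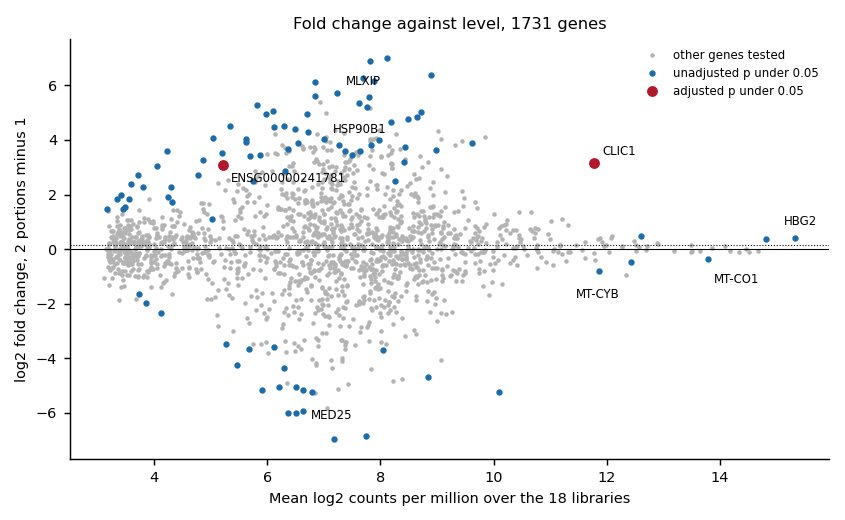
Each point is 1 of the 1731 genes tested, with the log2 fold change of 2 portions against 1 on the y axis. The x axis gives the average log2 CPM that edgeR reports over the 18 libraries. It follows the average level and is not a mean of log2 values, so a few high libraries can move a sparse gene to the right. The dotted line is the median of all genes, 0.15. CLIC1 stands apart at a high level with a fold change of 3.14, while fold changes of several log2 units are common among genes with few counts.

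Depth differed between the arms. Total counts ranged from 229676 to 462652 with 2 portions, from 134311 to 480075 with 1 portion and from 81806 to 198316 in the solvent libraries. On the log2 scale the total was 0.53 higher with 2 portions than with 1 when averaged over the blocks (exact permutation test within blocks, two-sided, p = 0.0466, adjusted p = 0.187 over 20 such tests). In Bio, the YM115_YM115 library exceeded both one-portion libraries in 3 of 3 runs. In dT it did so in 1 of 3, because the YM115_DMSO libraries of that screen (mean 425065 ± 48133, SD, n = 3) were deeper than the DMSO_YM115 libraries (185651 ± 36975, n = 3). Detected genes in Bio numbered 2565 ± 447 with 2 portions (SD, n = 3) and 1938 ± 331 with 1 (n = 6), a difference in 3 of 3 runs with an exact permutation p of 0.037, the smallest that 27 assignments allow (adjusted p = 0.185 over the 20 tests). Thinned to the smallest total, the difference was 324 genes in Bio and 170 in dT. The part of depth in the results was not tested beyond the fits given beside them.

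**Figure D2:**
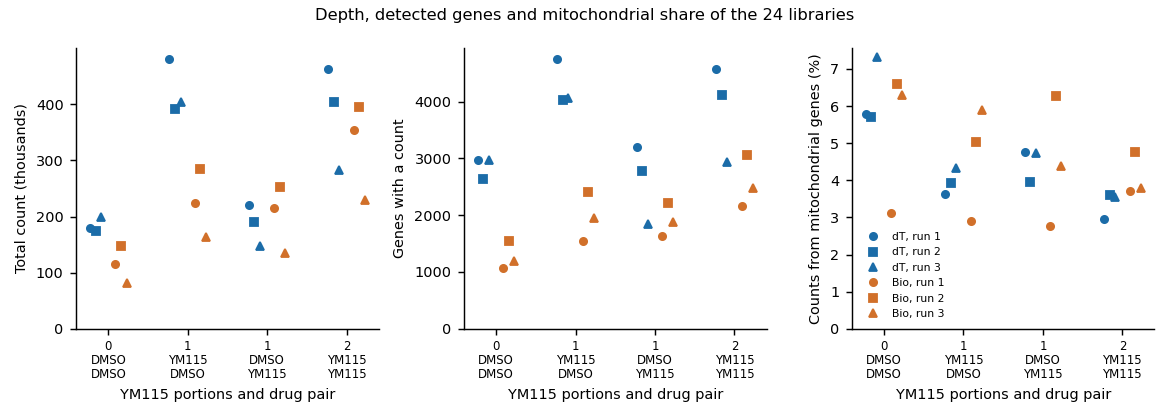
Total counts (in units of 1000), genes with a count and the percent of counts from mitochondrial genes are plotted for the 24 libraries by YM115 portions and drug pair, 1 point per library with colour for screen and shape for run. In Bio the 2-portion libraries have the highest totals of their runs, and in dT the YM115_DMSO libraries are as deep as they are.

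CLIC1, chloride intracellular channel 1 (chromosome 6, 31730581 to 31739763 on GRCh38, protein coding), encodes a protein that exists in a soluble and a membrane form. With 2 portions it stood at 9348, 8785 and 6205 CPM in dT runs 1, 2 and 3. In the same runs of Bio it stood at 12833, 3500 and 8869 CPM. All 6 values lay above the 12 one-portion libraries, whose lowest, median and highest values were 294.5, 883 and 2347 CPM. The means were 8113 ± 1676 CPM in dT and 8401 ± 4684 CPM in Bio (SD, n = 3 each). The one-portion means were 855 ± 270 CPM (YM115_DMSO) and 1157 ± 918 CPM (DMSO_YM115) in dT, and 959 ± 754 CPM and 1223 ± 1014 CPM in Bio (n = 3 each).

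The log2 fold change of CLIC1 was 3.14 (SE 0.32, adjusted p = 4.05e-05, edgeR). Against the median of all genes it was higher by 2.99 on the log2 scale. It was 3.27 (SE 0.42, adjusted p = 0.019) in dT and 3.15 (SE 0.52, adjusted p = 0.114) in Bio, where CLIC1 did not pass. In Bio it passed under 7 of 25 alternatives, which were DESeq2 (adjusted p = 1.61e-06), limma-voom (0.0269), no filter on low counts (0.0117), genes counted in every library (0.011), either single reference (0.000779 and 1.47e-05) and leaving out YM115_DMSO run 1 (0.0437). The Bio fits with no filter or a single reference took the spread as known, so their p-values do not measure the spread between 3 runs. Against DMSO_YM115 alone, 3.185 (SE 0.571) had an unadjusted p of 2.71e-08 by edgeR. In Bio as set, 3.15 (SE 0.52) had 9.98e-05. The call in dT was lost with the log2 total count as a covariate (fold change 3.30, adjusted p = 0.144), without the YM115_YM115 library of run 1 (adjusted p = 0.356) or of run 2 (0.484), and without all of run 1 (0.174) or of run 2 (0.169), while in the fit of both screens CLIC1 passed under each of 35 alternatives. The effect in Bio minus that in dT was -0.09 (SE 0.69, adjusted p = 1). The fold change was 3.29 against YM115_DMSO alone (adjusted p = 0.000655) and 3.09 against DMSO_YM115 alone (adjusted p = 0.00851), and with the log2 total count as a covariate it was 3.17 (adjusted p = 0.0074).

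With 1 portion CLIC1 was not called against solvent. Solvent libraries ranged from 85.6 to 3211 CPM with a median of 1202 CPM, and the fold change of 1 portion against solvent was -0.46 (SE 0.58, adjusted p = 0.876, edgeR). That comparison uses the same one-portion libraries. In the 24 libraries that paired YM115 with imatinib or trametinib, CLIC1 lay between 354 and 1671 CPM. Among the 86 other libraries of the screens with at least 1000 detected genes the highest value was 3652 CPM, in a Bio library with trametinib from both sources. That single library lay above the lowest YM115_YM115 library, at 3500 CPM.

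**Figure D3:**
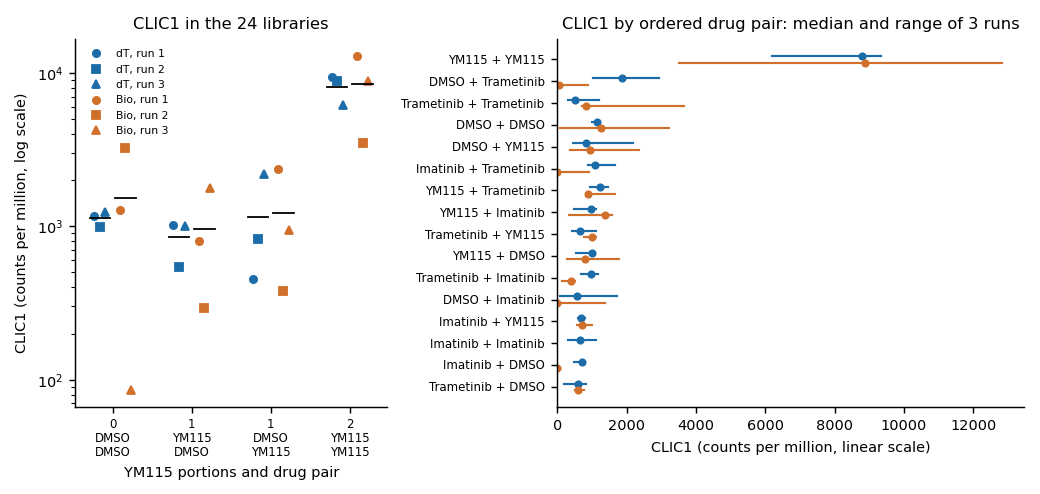
The left plot gives CLIC1 in CPM, on a log axis, in each of the 24 libraries by YM115 portions and drug pair, with bars at the mean of 3 runs. The right plot gives the median and range over runs of each ordered drug pair on a linear axis. YM115 + YM115 has medians of 8785 CPM in dT and 8869 CPM in Bio, and 1 library of any other pair overlaps its range.

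The annotated span of CLIC1 overlaps that of DDAH2 at its end, which had a count in 5 of the 18 libraries. Whether counting used strand is not given in the sources used here. Of 26 genes of the table within 100 kb of CLIC1, itself included, 9 were tested. VARS1, which encodes valyl-tRNA synthetase and lies 37755 bases away, was the other gene of that window higher in 6 of 6 blocks. It was named after its values were seen. With 2 portions it stood at 1331, 1254 and 1914 CPM in the dT runs and 570, 2359 and 1254 CPM in the Bio runs. One-portion libraries held 0 to 962 CPM with a median of 484 CPM, so the arms overlapped. The fold change of 3.88 did not pass by edgeR (unadjusted p = 0.0196, adjusted p = 0.722) and passed by DESeq2 (adjusted p = 0.0137).

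ENSG00000241781, for which the tables used here give no symbol or position, was the second gene past the threshold. It had 16, 22 and 10 counts in dT and 29, 54 and 21 counts in Bio with 2 portions. In the 12 one-portion libraries it had 1 to 5 counts. In CPM the 2-portion libraries of dT stood at 34.6, 54.4 and 35.4 and those of Bio at 81.8, 136.7 and 91.4, all above the one-portion maximum of 22.3 CPM. The log2 fold change was 3.07 (SE 0.55, adjusted p = 0.0276, edgeR). It passed in neither screen alone, at 3.19 (adjusted p = 0.999) in dT and 3.08 (adjusted p = 0.958) in Bio. It passed under 20 of 35 alternatives, whose adjusted p ranged from 3.62e-08 to 0.986. The call was lost without Bio YM115_DMSO run 1 (adjusted p = 0.0616), Bio YM115_YM115 run 1 (0.063), dT DMSO_YM115 run 2 (0.0565) or dT YM115_YM115 run 2 (0.0585), and without all of run 1 (0.652), 2 (0.616) or 3 (0.468), while the fold change stayed between 2.93 and 3.38. It was also lost with the log2 total as a covariate (0.528), thinned counts (0.0884), the size factors of DESeq2 (0.0621), limma-voom (0.156), filterByExpr (0.608), no filter (0.820), YM115_DMSO alone (0.986) and DMSO_YM115 alone (0.644).

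ENSG00000277105 and ENSG00000239776 were also above most one-portion libraries, did not pass, and were named after their values were seen. With 2 portions ENSG00000277105 lay between 223 and 1103 CPM, above the one-portion range of 39.6 to 201 CPM (log2 fold change 2.50, adjusted p = 0.582, edgeR). ENSG00000239776 lay between 38.9 and 174 CPM, against 4.17 to 54.5 CPM with 1 portion (2.51, adjusted p = 0.431). Among genes counted in every library both passed (adjusted p = 0.000186 and 0.00393), and DESeq2 called ENSG00000277105 (0.0275). Both also passed against all other drug pairs, a reference added after seeing the data (adjusted p = 1.21e-06 and 9.7e-05, edgeR). All 3 were far higher in other libraries of the series. In the 6 separate DMSO controls the range was 464 to 4671 CPM for ENSG00000241781 and 1808 to 17618 CPM for ENSG00000277105. In the 3 Bio libraries with imatinib from both sources, each with under 1000 detected genes, the ranges were 159 to 391.5 CPM and 1118 to 1593 CPM. The part of library composition in the levels with 2 portions was not tested.

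**Figure D4:**
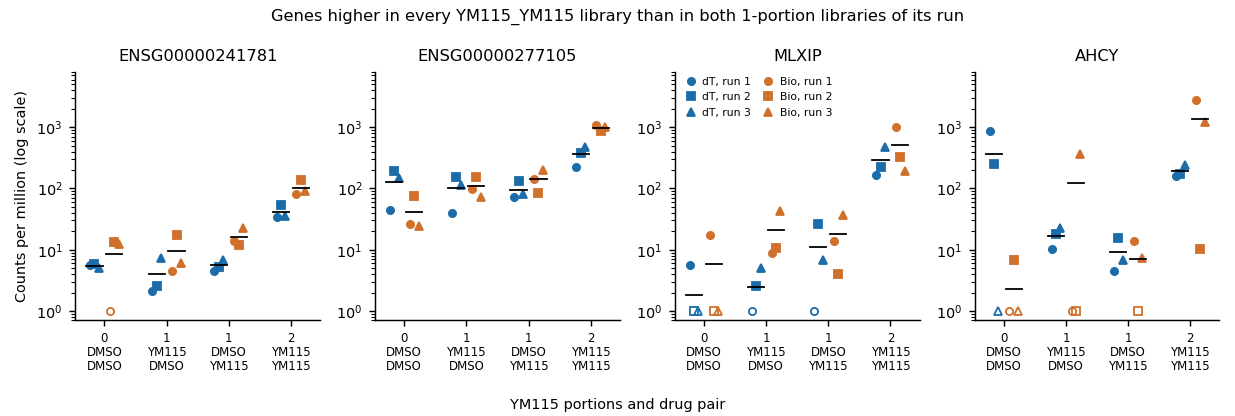
ENSG00000241781, ENSG00000277105, MLXIP and AHCY in CPM, on a log axis, by YM115 portions and drug pair. Each point is 1 library, open points at the floor of the axis are libraries below 1 CPM, and bars are means of 3 runs. The 2-portion libraries lie above all one-portion libraries for the first 3 genes, while for AHCY the arms overlap, with a 2-portion library at 10.1 CPM and a one-portion library at 368 CPM.

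Of the genes tested, 5 (0.289%) had all 6 libraries with 2 portions above all 12 with 1. These were CLIC1, ENSG00000241781, ENSG00000277105, MLXIP and ENSG00000275783. MLXIP (chromosome 12, 122078722 to 122147347), a glucose-responsive transcription factor also called MondoA, had 76, 91 and 134 counts in dT and 356, 129 and 44 counts in Bio with 2 portions. It had 0 to 7 counts with 1 portion. Its log2 fold change of 5.72 (SE 1.17) missed the threshold with an adjusted p of 0.0626 by edgeR. MLXIP passed under 4 of 34 alternatives, namely DESeq2 (adjusted p = 1.59e-05), limma-voom (0.00482), no replicate block (0.0393) and leaving out Bio YM115_YM115 run 3 (0.0489). Beyond this comparison MLXIP was above the lowest YM115_YM115 library in 7 of the 86 other libraries of the screens. It was also above it in 4 of the 6 separate DMSO controls, whose median was 223.5 CPM against 275.8 CPM with 2 portions. ENSG00000275783, which also has no symbol in the tables used, had 37 to 103 counts with 2 portions and 0 to 10 with 1 (log2 fold change 4.53, adjusted p = 0.0895), and 26 of the 86 other libraries, a solvent library at 197 CPM among them, exceeded its lowest 2-portion value. DESeq2 (0.00086), limma-voom (0.0308) and leaving out dT DMSO_YM115 run 1 (0.0492) brought ENSG00000275783 past the threshold.

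The remaining genes with the smallest p among those higher did not pass either. AHCY (chromosome 20), which hydrolyses S-adenosylhomocysteine, had 74, 70 and 68 counts in dT and 996, 4 and 281 in Bio with 2 portions. It had 0 to 60 counts with 1 portion, and 156 in 1 of the solvent libraries (log2 fold change 4.65, adjusted p = 0.272, edgeR). AHCY passed by DESeq2 (0.00398) and limma-voom (0.024). COL6A3, a chain of collagen VI, and ENSG00000228643 rested on few counts. COL6A3 had 1 to 11 counts with 2 portions and 0 to 2 with 1 (2.73, adjusted p = 0.0626), and ENSG00000228643 had 1 or 2 counts in 5 of the 2-portion libraries and 39 in dT run 3 (3.06, adjusted p = 0.0758). With no replicate block both passed (adjusted p = 0.0352 and 0.0172), as did COL6A3 without dT DMSO_YM115 run 1 (0.0269) and ENSG00000228643 without dT YM115_DMSO run 1 (0.0216) or 2 (0.0262). Against all other drug pairs, a reference added after seeing the data, COL6A3 and ENSG00000228643 passed as well (0.0107 and 0.0185, edgeR). SCAF1, which encodes an SR-related protein, and RAB1B, a small GTPase of transport from the endoplasmic reticulum to the Golgi, were counted in all 6 libraries with 2 portions and in 3 of 12 with 1 each. SCAF1 and RAB1B met the filter on low counts only through the 2-portion libraries, so their entry depended on the difference being tested. With that limit, their adjusted p-values were 0.0758 and 0.408 by edgeR, and 0.00618 and 0.0328 by DESeq2. COL6A3 and ENSG00000228643, with a count in 11 and 10 libraries, met the filter in the same way. SCAF1 reached 2475 CPM elsewhere in the screens, while its highest value with 2 portions was 73.4 CPM.

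On the lower side 0 of 1731 genes passed, and the 10 with the smallest p were sparsely counted. They were MED25 (a Mediator subunit), CUX1 (a homeobox transcription factor), CCDC85B, SZRD1, DPP9 (a dipeptidyl peptidase), ZFP36L1 (an mRNA decay factor), RPS3AP21 (a pseudogene), HSPBP1 (a cochaperone of HSP70), VPS39 (a subunit of a lysosomal tethering complex) and MKNK2 (a kinase of eIF4E). Their adjusted p-values ran from 0.465 to 0.705 (edgeR). DESeq2 called 5 of them, MED25 (adjusted p = 0.00771), CUX1 (0.0302), CCDC85B (0.0108), SZRD1 (0.00796) and MKNK2 (8.77e-05). It called 20 of the 1731 genes as lower, and these 10 had been picked by their p in the same libraries. MED25 had a count in 3 of 6 libraries with 2 portions, with 1 count in each, and in 9 of 12 with 1 portion, where the highest was 109 counts. MKNK2 had 8 counts in 1 of 6 libraries with 2 portions, and a count in 10 of 12 with 1, up to 502. For both, libraries of the one-portion arm also lay at 0, and so the arms overlapped. The fitted fold changes of such genes depend on the prior count and are not given as sizes. The same limit holds for sparse genes with a positive fold change that is printed here, such as ENSG00000228643 above and RPL23A and CDCA8 below. Those values are not to be read as measured sizes either.

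HBG2, haemoglobin subunit gamma 2, was the most abundant of the globins, and its mean was lowest in the solvent libraries and highest with 2 portions. The step from 1 to 2 portions did not pass by edgeR as set, and passed under 10 of 35 alternatives. With 2 portions it stood at 39853, 44355 and 82860 CPM in dT. In Bio it stood at 49961, 29411 and 45804 CPM. It exceeded both one-portion libraries of the same run in 5 of 6 blocks, and Bio run 2, at 29411 CPM against 24216 and 32045 CPM, was the exception. Means were 24837 ± 8936 CPM in the solvent libraries (SD, n = 6), 37198 ± 12768 CPM with 1 portion (n = 12) and 48707 ± 18144 CPM with 2 (n = 6). Such levels were not particular to 2 portions. Of the 24 libraries that paired YM115 with imatinib or trametinib, 18 exceeded the lowest 2-portion library, as did 46 of all 86 other libraries of the screens. In dT the mean was 54385 CPM for Imatinib_YM115 and 55689 CPM for YM115_YM115.

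The log2 fold change of HBG2 for 2 portions against 1 was 0.40 (SE 0.08, adjusted p = 0.0626, edgeR), which is 0.25 above the median of all genes. It was 0.40 in dT (SE 0.08, adjusted p = 0.446) and 0.51 in Bio (SE 0.15, adjusted p = 0.958). It passed with limma-voom (adjusted p = 0.024), with filterByExpr (0.00663) and without run 2 (0.0157). It also passed without any single one of 7 libraries, which were Bio DMSO_YM115 and YM115_YM115 of run 2 (0.0123 and 0.00422), dT DMSO_YM115 and YM115_YM115 of run 1 (0.00189 and 0.00252) and dT YM115_DMSO of run 1, 2 or 3 (0.00325, 0.00191 and 0.00297). In dT alone HBG2 passed under 7 of 25 alternatives and in Bio under 3 of 25. The 3 in Bio were no filter and either single reference, which were also among those in dT. Those fits took the spread as known, so their p-values do not measure the spread between runs. For 1 portion against solvent the fold change was 0.64 (SE 0.12, adjusted p = 0.0106). In that comparison, which shares the one-portion libraries, 2 of 1497 genes (0.134%) were higher and 2 (0.134%) were lower. With the size factors of DESeq2 in place of TMM, the median of all genes for 2 portions against 1 moved from 0.15 to -0.02, and the fold change of HBG2 was 0.18 (adjusted p = 0.968, edgeR). The reads of HBG2 are uncertain, since HBG1 is a near-identical copy and HBE1 overlaps the annotated span.

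Of the 10 globin genes listed, 5 were tested and 0 passed by edgeR in either direction, apart from the alternatives given for HBG2. A fold change above 0 was seen in 3 of the 5, beside 55.9% of all genes tested. The median of the 5 was 0.34, against 0.15 for all genes. The 10 genes held 5.09% ± 1.91 of counts with 2 portions (SD, n = 6) and 3.90% ± 1.32 with 1 (n = 12). HBZ, the embryonic zeta chain, ranged from 451 to 2396 CPM with 2 portions and from 305 to 2434 CPM with 1, so that the arms overlapped (log2 fold change 0.69, adjusted p = 1). HBE1, the embryonic epsilon chain, lay between 0 and 156 CPM with 2 portions and between 0 and 138 CPM with 1 (0.34, adjusted p = 1). HBG1 was too sparse to test, with 66, 1 and 57 counts in dT with 2 portions, 0 in Bio and 0 in all 12 libraries with 1. Among 20 erythroid regulators and heme enzymes 5 were tested and 0 passed. GYPC, a red cell membrane glycophorin, was above both one-portion libraries in 5 of 6 blocks, from 618 to 2046 CPM against 0 to 2936 CPM (1.72, adjusted p = 1).

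**Figure D5:**
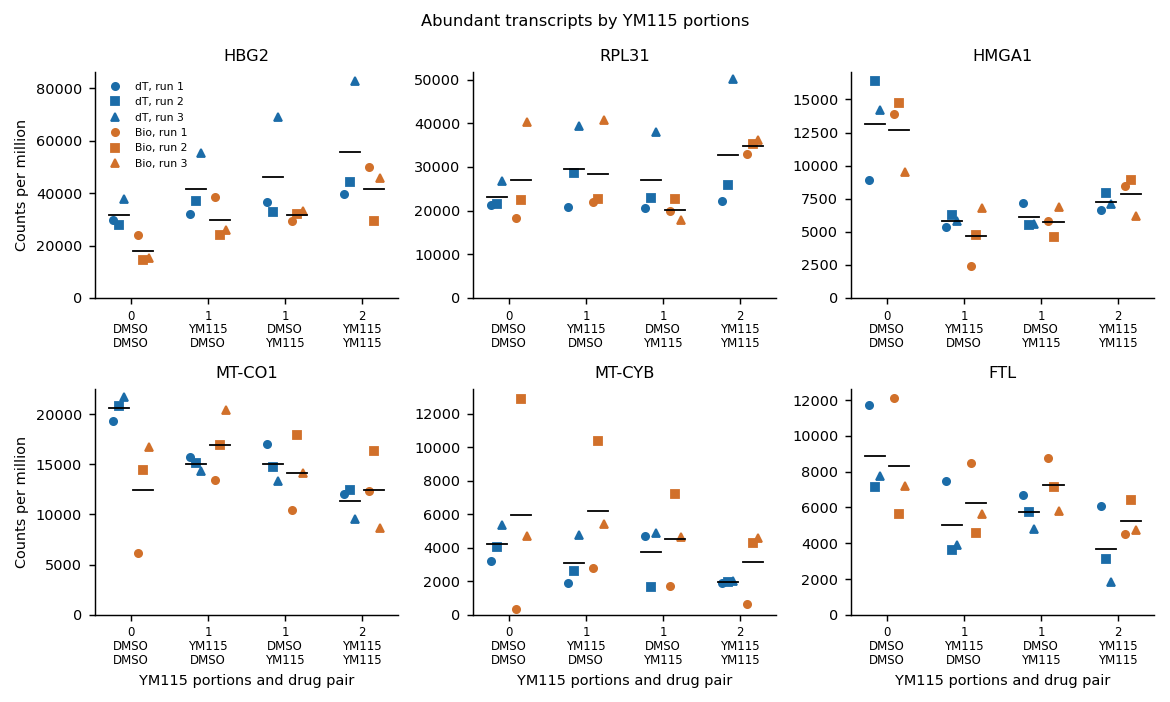
Levels of 6 abundant transcripts in CPM by YM115 portions and drug pair, with 1 point per library and bars at the mean of 3 runs. HBG2 means climb from solvent to 2 portions in both screens, HMGA1 lies highest in the solvent libraries, and the 2-portion and one-portion libraries overlap for all 6.

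MT-CO1 (subunit 1 of cytochrome c oxidase, mitochondrial genome) and MT-CYB (cytochrome b of complex III) had fold changes below 0 that did not pass by edgeR and did by DESeq2. MT-CO1 stood at 11996, 12452 and 9579 CPM in dT with 2 portions. In Bio it stood at 12319, 16343 and 8695 CPM. It was below both one-portion libraries in 5 of 6 blocks, and the one-portion range was 10452 to 20411 CPM. Its fold change was -0.35 (SE 0.13, unadjusted p = 0.0194, adjusted p = 0.722, edgeR), or -0.50 relative to the median of all genes. By DESeq2 it passed at -0.56 (adjusted p = 0.00086), and among the 221 genes counted in every library it passed at -0.52 (adjusted p = 0.0122, edgeR). MT-CYB was below both in 5 of 6 blocks too, with 638 to 4598 CPM against 1647 to 10364 CPM (-0.80, adjusted p = 0.705, edgeR). By DESeq2 it passed at -0.99 (adjusted p = 0.0141).

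Over the 10 tested of 13 mitochondrially encoded protein genes, 0 passed by edgeR and 2 by DESeq2 (MT-CO1 and MT-CYB). DESeq2 called 55 of all 1731 genes tested, 20 of them as lower. Of the 10 genes, 5 had a fold change below 0, beside 763 of the 1731. The median of the 10 was 0.01, and -0.19 under the size factors of DESeq2. The 13 genes held 3.25% ± 0.418 of counts with 2 portions (SD, n = 6), 3.99% ± 0.954 with 1 (n = 12) and 5.18% in the mean of the solvent libraries. All mitochondrial genes together held 3.73% ± 0.582 with 2 portions and 4.39% ± 1.06 with 1, lower than both one-portion libraries in 5 of 6 blocks (exact permutation p = 0.0768, adjusted p = 0.256 over 20 tests). MT-ND1 (complex I) had a fold change of -0.41 and MT-CO3 (complex IV) of -0.07, which turned positive under several alternatives, both with an adjusted p of 1. MT-RNR2, the large mitochondrial ribosomal RNA, had 0.43 (adjusted p = 1). Of 44 nuclear-encoded subunits of the respiratory chain and ATP synthase, 23 were tested and 0 passed, with a median of 0.08 that was -0.10 under those size factors.

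FTL, the ferritin light chain that stores iron, stood at 6065, 3133 and 1836 CPM in dT and 4498, 6431 and 4759 CPM in Bio with 2 portions. It was below both one-portion libraries in 5 of 6 blocks, but overlapped their range of 3632 to 8790 CPM. The fold change was -0.47 (SE 0.21, unadjusted p = 0.0364, adjusted p = 0.838, edgeR). DESeq2 called FTL at -0.68 (adjusted p = 0.0344), 1 of 20 genes it called as lower among 1731. FTH1, the heavy chain, lay between 122 and 372 CPM with 2 portions and 192 and 1497 CPM with 1 (-1.17, adjusted p = 1). Solvent libraries were higher for both, with medians of 7484 and 1000 CPM. Both genes have many processed pseudogenes, so their reads are uncertain. Of 8 iron genes these 2 were tested.

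HMGA1, a chromatin protein that binds AT-rich DNA, was lower with 1 portion than in solvent (medians 5679 and 14040 CPM, log2 fold change -1.16, SE 0.20, adjusted p = 0.00885, edgeR). With 2 portions it was between 6222 and 8902 CPM, against 2428 to 7165 CPM with 1, with a fold change of 0.49 that did not pass (SE 0.20, unadjusted p = 0.0298, adjusted p = 0.793). The one-portion libraries enter both fold changes with opposite sign. HMGA1P8, a pseudogene of HMGA1, was the other gene lower with 1 portion than in solvent, so reads of HMGA1 are uncertain. RPL31, a protein of the large ribosomal subunit, ranged from 22250 to 50116 CPM with 2 portions and from 17757 to 40620 CPM with 1. It was above both one-portion libraries in 4 of 6 blocks (0.38, SE 0.14, unadjusted p = 0.0161, adjusted p = 0.705).

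Ribosomal protein genes held similar shares of counts in both arms. Of 39 tested genes of the large subunit and 28 of the small subunit 0 passed, with medians of 0.14 and 0.03, and under the size factors of DESeq2 both medians were below 0. The large subunit held 15.1% ± 1.499 of counts with 2 portions (SD, n = 6) and 14.4% ± 1.62 with 1 (n = 12). RPL23 had a fold change of 0.16 (adjusted p = 1), which was -0.01 under those size factors, and RPL23A had 3.44 (unadjusted p = 0.0494, adjusted p = 0.928) from 4 of 6 and 5 of 12 libraries with a count.

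In the lists for protein folding, splicing and degradation 0 genes passed by edgeR, and DESeq2 called HNRNPAB (adjusted p = 0.0153) and HNRNPR (0.0375), both RNA-binding proteins, as higher. Among all 1731 genes DESeq2 called 35 as higher. Of 14 tested chaperone genes, HSP90B1, the HSP90 of the endoplasmic reticulum, had 194, 49 and 55 counts in dT and 0, 331 and 42 in Bio with 2 portions, and 0 to 45 with 1 (4.04, unadjusted p = 0.0175, adjusted p = 0.705, edgeR). HSPB1, a small heat shock protein, lay between 160 and 1498 CPM against 242 to 4144 CPM (-1.27, adjusted p = 0.928). Of 16 tested splicing genes, HNRNPH1 and HNRNPAB had unadjusted p-values of 0.0168 and 0.0378 and adjusted p-values of 0.705 and 0.838, each counted in 4 of 6 libraries with 2 portions and 5 of 12 with 1. HNRNPH1 and HNRNPAB also met the filter on low counts only through the 2-portion libraries, so their entry depended on the difference being tested. The 16 tested splicing genes had a median of 0.49. Of 15 tested proteasome genes, PSMB6 had the smallest p (unadjusted p = 0.0423, adjusted p = 0.883), and the median was 0.84, and both medians stand beside 0.15 for all genes.

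The genes closest to the known action of the compound were mostly too sparse to test. BIRC5 had 4, 0 and 0 counts in dT and 0, 3 and 0 in Bio with 2 portions, 0 to 6 counts with 1 portion and 0 in all solvent libraries. A count of 0 in the smallest of the 18 libraries, at 134311 counts, allows up to 3 counts or 22.3 CPM, for counting error only. SLC35F2 had 1 count in 1 of 6 libraries with 2 portions, and 42 and 9 counts in 2 of 12 with 1. Of the 7 genes listed for target and transport 0 were tested in the fit of both screens or in Bio, and 1 in dT. This was CDCA8, a subunit of the chromosomal passenger complex, with 0, 16 and 138 counts in the dT runs with 2 portions and 0 to 147 counts with 1 (log2 fold change 2.45, SE 3.12, adjusted p = 0.999, edgeR). Of 22 genes of the apoptosis inhibitor and BCL2 families 1 was tested, and it did not pass. Of 29 genes of mitosis and the cell cycle 8 were tested and 0 passed, with 5 below 0 and a median of -0.58. Of all 1731 genes tested, 763 were below 0. CCNB1, cyclin B1, had 8 counts in 1 of 6 libraries with 2 portions, and 1 to 117 counts in 8 of 12 with 1 (adjusted p = 1). Of 21 genes for DNA damage and stress 5 were tested and 0 passed, and of 22 for DNA replication 4 and 0.

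Metallothioneins, which bind zinc and copper, had overlapping levels with 1 and 2 portions, and 1 of them had risen at the first portion. MT1X stood at 5736 to 17316 CPM with 2 portions and 4096 to 23825 CPM with 1 (log2 fold change -0.10, SE 0.13, adjusted p = 1, edgeR), whereas 1 portion against solvent gave 1.17 (SE 0.21, adjusted p = 0.00924). MT2A (-0.09), MT1G (0.14, and -0.05 under the size factors of DESeq2) and MT1E (-0.46) had an adjusted p of 1 as well. Of 9 members 7 were tested and 0 passed. The group held 3.34% ± 1.75 of counts with 2 portions (SD, n = 6) and 3.76% ± 2.33 with 1 (n = 12).

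In the remaining lists 0 genes passed by edgeR. DESeq2 called EIF3D, a subunit of an initiation factor, as higher (adjusted p = 0.00796), 1 of 35 genes it called as higher among 1731. The remaining lists covered redox enzymes (4 tested), glycolysis (9), high mobility group proteins (5), elongation and initiation factors (17), the cytoskeleton (9) and growth factor response (1). EMP3, an epithelial membrane protein that the cytoskeletal list holds, lay between 2.82 and 871 CPM with 2 portions and 0 and 2204 CPM with 1 (0.09, and -0.14 under the size factors of DESeq2, adjusted p = 1).

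Within each screen the comparison had 3 libraries against 6. In dT, 1 of 2420 genes passed (0.0413%), which was CLIC1, and 100 had an unadjusted p under 0.05 (4.13%). In Bio, 0 of 1139 passed (0%), with 46 at an unadjusted p under 0.05 (4.04%), and DESeq2 called 30. For the difference in effect between the screens 0 of 1731 genes passed (0%), with 93 at an unadjusted p under 0.05 (5.37%) by edgeR and no other tool run for this difference.

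Markers were checked against the cell line. The listed genes known in K562 cells together held 3.09% to 8.73% of counts with 2 portions and 2.58% to 7.33% with 1. Of 15 markers of lymphoid, monocytic, epithelial, endothelial and fibroblast cells, 13 were in the table and 7 of these were at 0 in all 24 libraries (CD3E, MS4A1, S100A9, EPCAM, KRT5, COL1A1 and PECAM1). The others held 0% to 0.0666% of counts with 2 portions and 0% to 0.197% with 1.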

How the data were processed

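For every library the authors deposited a column of unnormalised read counts by gene. Per the submitters' processing notes the tools and build include STAR 2.4.2a and GRCh38, and the annotation and strand setting are not given in the sources used here. No collapse of molecular identifiers is described, so amplified reads are not independent molecules. Of 24965 genes, 24646 were given GENCODE 29 coordinates. Libraries with under 1000 detected genes were to be left out, and genes counted in at least 50% of the libraries compared were tested with edgeR 4.0.16 (R 4.3.3, TMM, quasi-likelihood, Benjamini-Hochberg adjustment), with the 6 combinations of screen and run as a block. The SE beside an edgeR fold change is the size of that fold change divided by the square root of the F statistic of its test. It therefore restates the test and is no separate estimate of precision. CPM values are counts per 1000000 of the library's total. Library-level values were compared by exact permutation within blocks (two-sided, NumPy 2.4.6).

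Alternatives used DESeq2 1.42.0, limma 3.58.1 and other filters, references and libraries, and the reference of all other drug pairs was added after seeing the data. Same-run libraries deviated together with a mean r of 0.0659 in dT and 0.0213 in Bio, and 2 of 9 and 0 of 9 pairs exceeded 0.1. Of 24 replicate pairs 0 were identical. Named genes were those past the threshold, the 10 with the smallest p in each direction where fewer passed, a fixed set, and up to 4 per gene list. The members and lists were chosen with earlier results of these data known. The scripts were tested on simulated data. The result of a marker gene is not reported here.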

Additional observations from a re-analysis of the deposited data

Results flagged for a closer look

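In 64 groups of libraries tested for 1 extreme value, 5 had one, and chance gives about 1 in 20. RPL23 stood at 12.89 log2 CPM in Bio YM115_YM115 run 1, below the other 2-portion libraries at 13.59 to 13.8. CLIC1 stood at 6.54 log2 CPM in Bio DMSO_DMSO run 3, below the other solvent libraries at 9.97 to 11.65. In the solvent libraries MT-CO1 was lowest in Bio DMSO_DMSO run 1, at 12.59 log2 CPM, and MT-CO3 in Bio DMSO_DMSO run 3, at 12.52 log2 CPM. RPL31 stood at 15.31 log2 CPM in Bio YM115_DMSO run 3, above the other Bio one-portion libraries at 14.12 to 14.47.

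The separate DMSO controls, which enter no comparison above, had levels of 3 genes without a symbol above those of the 24 libraries described. Their medians over 6 libraries were 818 CPM for ENSG00000241781, 5604 CPM for ENSG00000277105 and 932 CPM for ENSG00000239776. Other named genes were high there too. The lowest YM115_YM115 library was exceeded by 4 of the 6 controls for MLXIP and for ENSG00000275783, by 6 for AHCY and for SCAF1, and by 0 for CLIC1.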

How the results depend on the processing

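CLIC1 was higher with 2 portions in both screens together under each of 35 alternatives, with log2 fold changes from 2.93 to 3.503 and adjusted p-values from 4.07e-18 to 0.00997. The number of genes past the threshold moved from 2 to 1 with the size factors of DESeq2, without a filter on low counts, against YM115_DMSO or DMSO_YM115 alone, with thinned counts and with the log2 total as a covariate. It moved to 5 with limma-voom, with genes counted in every library and with no replicate block, to 7 against all other drug pairs (added after seeing the data) and to 55 with DESeq2. Leaving out a run or a library gave 1 to 5 genes. In dT the count of 1 became 43 with DESeq2, 4 with limma-voom, 2 without a filter or with filterByExpr, 3 with genes counted in every library or against YM115_DMSO, 6 against DMSO_YM115, 0 with the covariate, and 0 to 2 with a run or library left out. In Bio the count of 0 became 30 with DESeq2, 4 with limma-voom, 3 without a filter, 5 with genes counted in every library, 4 against YM115_DMSO and 4 against DMSO_YM115, and 0 to 1 with a run or library left out. The fits without a filter, and those within a screen against a single reference, took the spread as known. Their counts therefore do not measure the spread between runs. Against YM115_DMSO alone, 2 portions in dT had a log2 total count that differed by -0.174 and detected genes that differed by -404. Some log2 fold changes changed sign, most of them near 0 and that of SCAF1 from 3.58, and the cause was not tested for these or for the counts above. With all other drug pairs as reference they were -2.50 for SCAF1, 0.25 for MT1X, 0.064 for MT2A, 0.38 for MT1E, -0.036 for HMGA1 and -0.19 for EMP3. With the size factors of DESeq2 they were -0.047 for MT1G, -0.14 for EMP3 and -0.013 for RPL23, and by DESeq2 -0.049 for MT1G, -0.23 for EMP3 and -0.014 for RPL23. By limma-voom they were -0.53 for HBE1 and -0.029 for MT1G, and with genes counted in every library -0.018 for MT1G. Without a filter they were 0.011 for MT1X, 0.019 for MT2A and 0.049 for MT-CO3. Against YM115_DMSO they were 0.19 for MT-CO3 and -0.18 for RPL23, and against DMSO_YM115 0.22 for MT2A. With the covariate they were 0.072 for MT-CO3 and -0.22 for RPL23, with thinned counts -0.37 for EMP3, with no replicate block -0.11 for EMP3, and with the solvent libraries included -0.14 for HBE1 and -0.085 for EMP3. With a run or library left out, HBE1 ranged from -0.65 to 1.35, MT1X from -0.16 to 0.043, MT2A from -0.15 to 0.095, MT1E from -1.64 to 0.61, MT-CO3 from -0.24 to 0.081, MT-RNR2 from -0.001 to 0.82 and EMP3 from -0.31 to 0.82. Counts limit the precision, since 221 of the 1731 genes tested had a count in all 18 libraries.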
